A study of Mus musculus with 8 samples.

Results

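Transcripts of 37 genes that serve the acrosome, the passage of sperm through the oviduct and the fusion of sperm with the egg were examined in mouse germ cells at 15 days after birth. The genes were taken by name, and all 37 were found, once each, among the 55357 genes of the deposited table. The germ cells came from 8 C57BL/6 males, 1 library per male, namely 4 *Mgat2*[F/F] controls, which carry the floxed alleles without Cre, and 4 that also carry the transgene, *Mgat2*[F/F]:*Stra8*-iCre, named cKO here, where Cre acts on the floxed *Mgat2* alleles from the spermatogonial stage on. *Mgat2* encodes the GlcNAc-transferase that completes the biantennary core of complex N-glycans. The question was which of the 37 genes were already transcribed at this age in controls, and how their transcripts differed in cKO germ cells.

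The acrosome is a vesicle derived from the Golgi that spreads as a cap over the nucleus of the round spermatid, and its contents are released before the sperm crosses the zona pellucida. Its proteases, its matrix and its membrane proteins are followed at fertilization by proteins of the equatorial segment and by fusion proteins such as IZUMO1. Transcripts of several acrosomal proteins are known to appear in meiotic spermatocytes, before the acrosome itself forms, whereas others are first made in spermatids.

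Totals of expected counts per library ran from 12584726 to 15907505, so that a floor of 3 counts equalled 0.189 to 0.238 CPM, counts scaled to the size of the library. The floor covers counting error only. The targeted *Mgat2* was at 69.8, 31.8, 64.3 and 59.8 CPM in control replicates 1 to 4 and at 35.3, 20.1, 37.6 and 16.0 CPM in cKO replicates 1 to 4, so that control replicate 2 lay below cKO replicates 1 and 3. This difference did not pass the main test (log2 fold change -1.05, standard error 0.36, edgeR adjusted p = 0.47) and passed with DESeq2 (adjusted p = 0.025). Exons of *Rpl36al* lie opposite 11.6% of the exonic bases of *Mgat2*, and the unstranded libraries cannot tell their reads apart. By staining of testis sections at this age, the authors found neither the encoded enzyme nor complex N-glycans in cKO germ cells. How complete the deletion was in these libraries was not tested. Of 8 spermatid markers, *Tnp2*, *Prm1* and *Txndc8* had no count in any library and the summed level of all 8 was 0.21 to 2.04 TPM, a count scaled to transcript length and library size, in controls and 0.25 to 6.06 TPM in cKO. All 8 Sertoli cell markers were detected in every library, led by *Clu* at 3754 to 4590 TPM, although the material is labelled germ cells, and their summed level was 5275 to 6538 TPM in controls and 5517 to 6559 TPM in cKO. Summed Leydig cell markers were at 35.9 to 89.7 TPM in controls and 48.6 to 73.8 TPM in cKO, and edgeR and DESeq2 called no marker of either somatic type.

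By the level reached in controls the 37 genes fell into 3 classes. In all 4 controls 21 genes reached a TPM of at least 1, and 19 genes did so in all 4 cKO libraries. *Cd46* and *Prss21* reached it in only some controls. The remaining 14 were under it in every control, and 9 of these had 0 counts in all 8 libraries, which allows a level of up to the floor in each. These 9 were *Zp3r*, *Spam1*, *Spaca3*, *Spaca7*, *Izumo2*, *Izumo3*, *Spaca4*, *Prss37* and *Prss55*. Another 4, *Acrv1*, *Tmem95*, *Dcst1* and *Dcst2*, had between 9 and 31 counts over all 8 libraries and never reached a TPM of 1. Only genes whose TPM reached 1 in any library were tested, which left 24 members among 20187 genes. Of these 24, *Prss21* passed this limit only through controls and *Eqtn* only through a cKO library.

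The detected genes spanned a wide range of levels. Per transcript length, *Tex101* was the most abundant, at 822 ± 94.3 TPM in controls (SD, n = 4), followed by *Ly6k* at 289 ± 31.9 TPM, *Crisp2* at 133 ± 133 TPM, *Agfg1* at 69.8 ± 9.65 TPM and *Pick1* at 47.6 ± 3.14 TPM. TEX101 is a GPI-anchored germ cell protein needed for ADAM3 to mature, LY6K is a related GPI-anchored protein required along with it, and AGFG1 and PICK1 act in vesicle traffic from the Golgi to the acrosome. *Tex101* stood at percentile 99.4 and *Ly6k* at percentile 98.1 of the mean control TPM of all tested genes. The ranges of *Tex101* and *Ly6k* did not meet, but the level of *Crisp2* cannot be ranked, since its control libraries ran from 41.1 to 328 TPM. By contrast *Izumo1*, whose product binds the egg receptor JUNO, was at 1.52 ± 0.39 TPM in controls, close to the limit of 1 TPM.

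**Figure D1:**
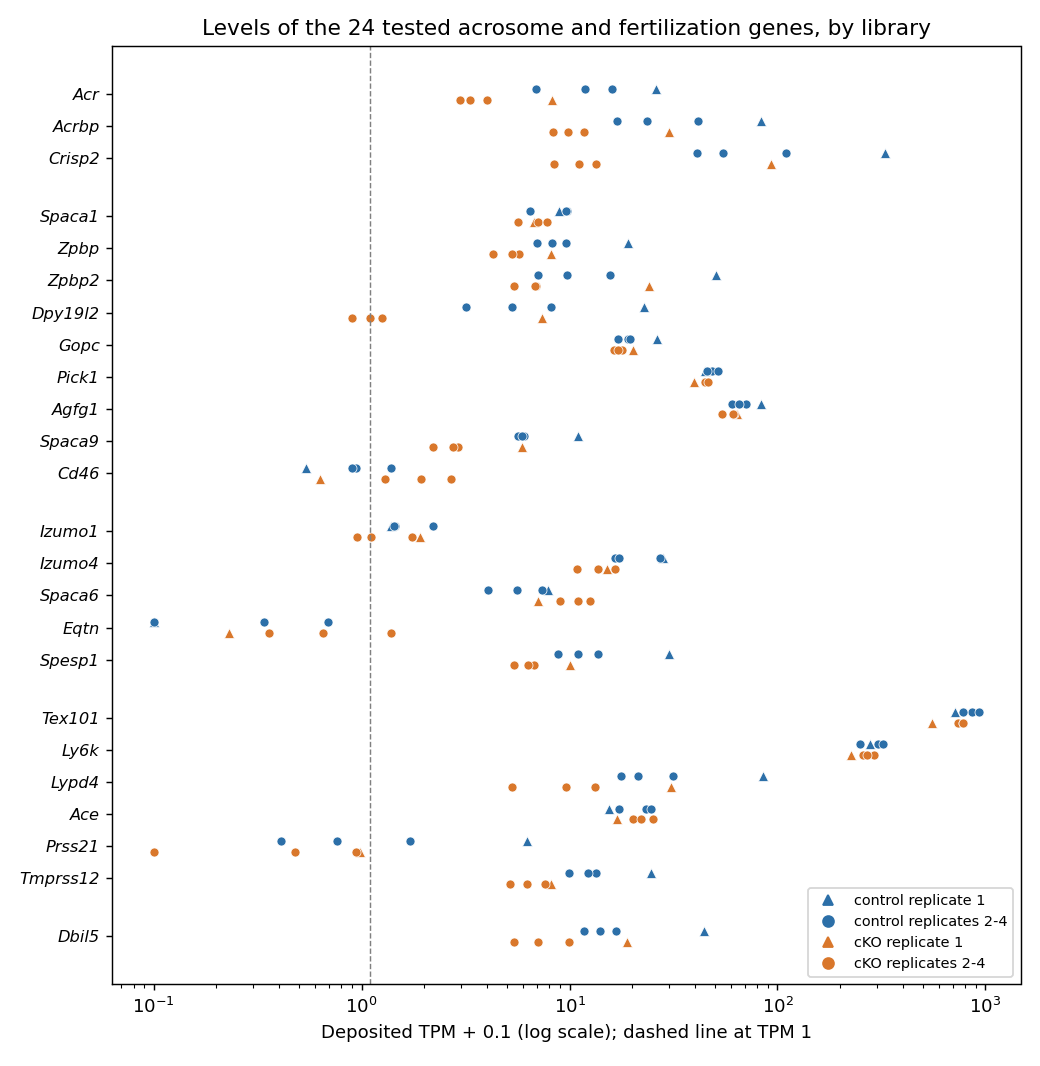
Deposited TPM plus 0.1 (log axis) of the 24 tested members in each library, grouped by role, with controls in blue, cKO in orange and replicate 1 of each genotype as a triangle. *Tex101* and *Ly6k* sit far to the right with the genotypes mixed, while for *Acr*, *Acrbp*, *Crisp2* and *Dpy19l2* the triangles lie to the right of the circles of their own genotype.

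Across the 24 tested members, 20 had lower and 4 higher values in cKO, the median of their log2 fold changes (cKO over control) being -0.86, against 9817 lower and 10364 higher and a median of 0.01 over all genes tested. The way *Prss21* and *Eqtn* passed the filter favoured the sides they stand on, lower for *Prss21* and higher for *Eqtn*. At an adjusted p of 0.05 no member passed the test of edgeR, and 0.0396% of all genes did. At an unadjusted p under 0.05 stood 6 members, *Acr*, *Zpbp*, *Izumo4*, *Spesp1* and *Tmprss12* with lower and *Spaca6* with higher values in cKO, where 8.9% of all genes did so. DESeq2 on the same counts called 3 members, *Acr*, *Izumo4* and *Tmprss12*, all lower in cKO, where it called 1.5% of all genes and 1.41% with a lower value. Limma-voom, and limma on log2 TPM, called none. In bulk RNA a smaller share of a cell type and less RNA per cell cannot be told apart, and this holds for every difference given here.

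**Figure D2:**
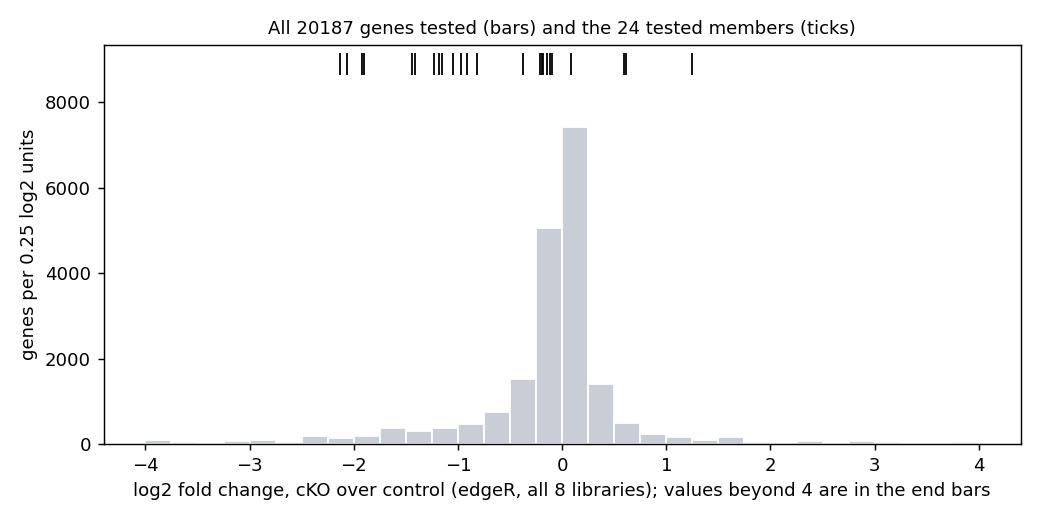
Number of genes (vertical axis) in bars 0.25 log2 units wide by log2 fold change, cKO over control, for the 20187 genes tested, with the 24 tested members as ticks above. The bars peak at 0, whereas 20 of the 24 ticks lie below 0 and 10 of them at or below -1.

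The 2 replicate 1 libraries stood apart in these genes. Among the 24 tested members, control replicate 1 was the highest control for 17 (35.8% of all genes) and cKO replicate 1 was the highest cKO library for 13 (36.1% of all genes). For all 10 members that were lower by 2-fold or more in cKO, both were the highest library of their genotype. The share with this order over all genes lower by 2-fold or more was not computed. *Piwil1*, *Ldhc*, *Ccna1*, *Pou5f2* and *Pgk2*, markers of pachytene spermatocytes that were lower by 2-fold or more, had the same order. So did *Hspa2* and *Tbpl1* of that marker list, but in *Mybl1* replicate 3 was the highest of each genotype. With both replicate 1 libraries left out, edgeR called 9 members, against 4.32% of all genes tested, and DESeq2 called 11, against 4.57%. The libraries left out were the highest of their genotype in many of these same members. The p-values without them, here and below, are therefore a description and not separate support. The 9 were *Acr*, *Acrbp*, *Zpbp*, *Dpy19l2*, *Izumo4*, *Spesp1*, *Lypd4* and *Tmprss12*, lower in cKO (3.86% of all genes), and *Spaca6*, higher in cKO (0.46%), and DESeq2 added *Crisp2* and *Zpbp2*, both lower. Leaving out any single library gave no call among the members. Without cKO replicate 1, and then without control replicate 1 in its place, the log2 fold change was -3.59 and -1.06 for *Crisp2*, -3.32 and -1.05 for *Dpy19l2*, -2.24 and -0.17 for *Zpbp2*, -2.17 and -0.64 for *Lypd4*, and -1.55 and -0.43 for *Dbil5*. It was -2.65 and -1.41 for *Acr*, -2.18 and -0.73 for *Acrbp*, and -2.53 and -0.77 for *Prss21*. Whether replicate 1 marks a shared litter or day is not given in the labels.

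**Figure D3:**
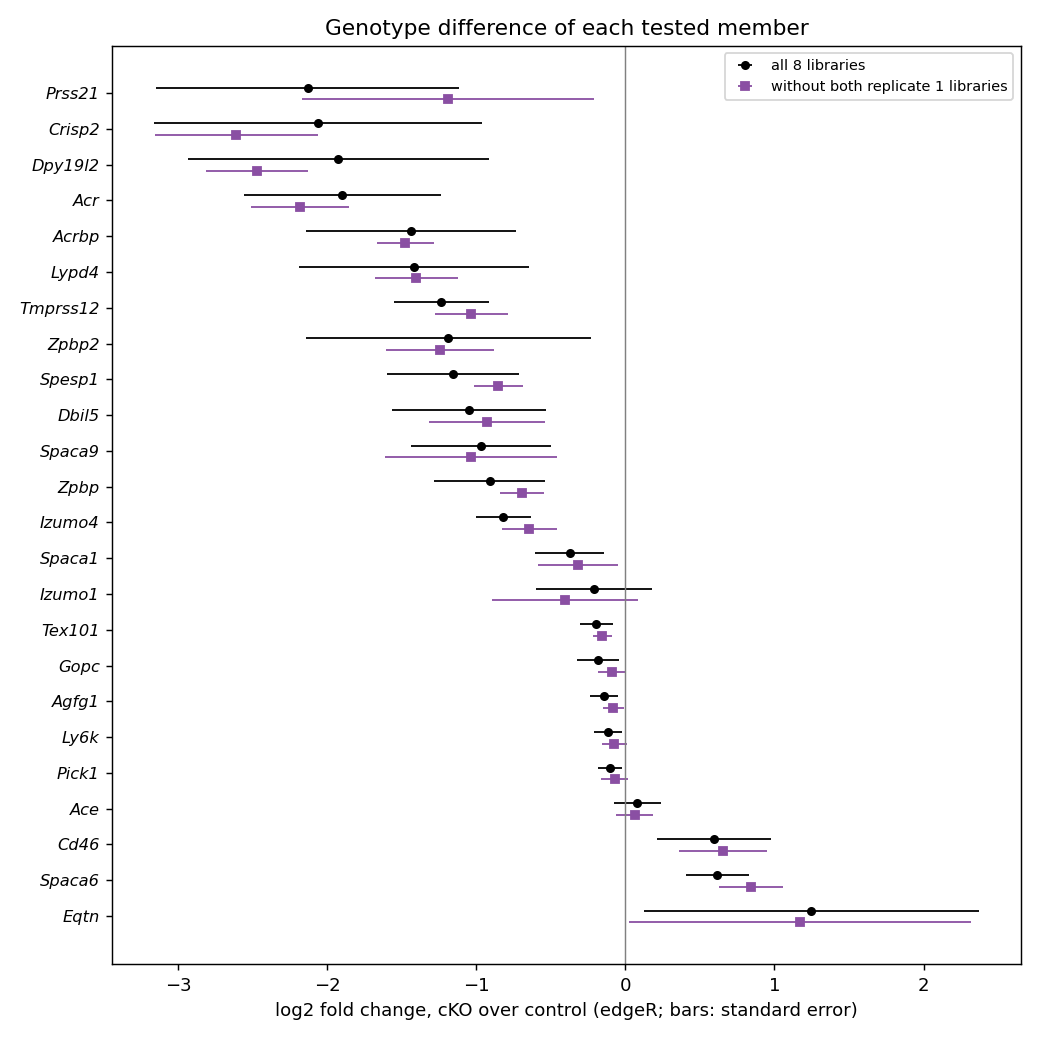
Log2 fold change (cKO over control, edgeR) of each tested member with its standard error, from all 8 libraries (black circles) and without both replicate 1 libraries (purple squares). All 24 estimates kept their side of 0, and the error bars of *Crisp2*, *Dpy19l2*, *Acr* and *Acrbp* were shorter without the replicate 1 libraries.

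Of the 8 genes for the contents of the acrosome, only *Acr*, *Acrbp* and *Crisp2* were tested. *Acr*, on chromosome 15 from 89452527 to 89458792 (GRCm39, forward strand), encodes acrosin, the main serine protease of the acrosome. It was at 20.2, 7.26, 11.1 and 5.15 CPM in control replicates 1 to 4 and at 6.51, 1.75, 2.51 and 0.92 CPM in cKO replicates 1 to 4. The genotypes overlapped, since cKO replicate 1 lay above control replicate 4, but within replicates 2 to 4 every cKO library was below every control. The log2 fold change was -1.90 with a standard error of 0.66, the largest difference among the members named at an unadjusted p under 0.05 (edgeR adjusted p = 0.47, 0.033 from DESeq2), and -2.18 without the replicate 1 libraries (edgeR adjusted p = 1.89e-04). An exact permutation test over the 8 libraries gave p = 0.0571 (two-sided).

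*Acrbp* encodes the protein that binds proacrosin and steers its processing. Its levels were 51.7, 12.9, 19.1 and 11.9 CPM in control replicates 1 to 4 and 19.5, 5.18, 5.79 and 4.89 CPM in cKO replicates 1 to 4. Here too cKO replicate 1 reached into the control range, and the 3 other cKO libraries lay below all controls. The log2 fold change was -1.44 ± 0.70 (standard error) with all libraries (edgeR adjusted p = 0.62) and -1.48 ± 0.19 without replicate 1 (edgeR adjusted p = 1.31e-06). A lncRNA on the same strand, *Gm44597*, covers 29.8% of the exonic bases of *Acrbp*, so that reads there may be divided between the 2 genes.

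*Crisp2*, for a cysteine-rich secretory protein of the acrosome and the tail, varied widely between libraries. Control replicates 1 to 4 were at 203, 31.6, 65.6 and 25.0 CPM and cKO replicates 1 to 4 at 57.6, 6.54, 9.07 and 4.54 CPM. Control replicate 1 was 4.98 times the mean of the 3 other controls, and cKO replicate 1 was 8.57 times the mean of the 3 other cKO libraries. The log2 fold change was -2.06 ± 1.10 (standard error, edgeR adjusted p = 0.64) and, without replicate 1, -2.61 ± 0.55 (edgeR adjusted p = 0.12 and 2.02e-05 from DESeq2). Within replicates 2 to 4 every cKO library was below every control.

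All 9 genes for the assembly and membranes of the acrosome were tested, 8 being lower and 1 higher in cKO, with a median log2 fold change of -0.37 and no call by edgeR or DESeq2 over the 8 libraries. The differences in this group ranged widely. *Dpy19l2*, *Zpbp2*, *Spaca9* and *Zpbp* had log2 fold changes from -1.92 to -0.91, with standard errors of 0.37 to 1.01. Those of *Gopc*, *Agfg1* and *Pick1*, which encode widely used Golgi and vesicle proteins, lay between -0.18 and -0.10. *Spaca1*, at -0.37 ± 0.23, lay between these sets, and *Cd46* was at 0.59 ± 0.38.

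*Dpy19l2* encodes an inner nuclear membrane protein that anchors the acrosome to the nucleus. In control replicates 1 to 4 it was at 47.2, 10.4, 16.5 and 6.01 CPM, against 15.1, 1.62, 2.37 and 1.99 CPM in cKO replicates 1 to 4. Once more only cKO replicate 1 lay within the range of the controls. The log2 fold change of -1.92 ± 1.01 (standard error) did not pass (edgeR adjusted p = 0.63), and without replicate 1 it was -2.47 ± 0.34 (edgeR adjusted p = 4.93e-04).

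*Zpbp* and *Zpbp2* encode related proteins that bind the zona pellucida and hold the acrosomal matrix in shape. *Zpbp* was at 49.7, 20.3, 24.5 and 16.9 CPM in the 4 controls and at 21.0, 10.7, 14.6 and 13.0 CPM in the 4 cKO libraries, each in the order of replicates 1 to 4. *Zpbp2* ran at 33.1, 3.70, 9.86 and 6.17 CPM in controls and 14.9, 3.88, 2.72 and 1.70 CPM in cKO. *Zpbp* showed no overlap once both replicate 1 libraries were set aside, but *Zpbp2* did, because cKO replicate 2 was above control replicate 2. Their log2 fold changes were -0.91 ± 0.37 (adjusted p = 0.54) and -1.19 ± 0.96 (adjusted p = 0.74), with standard errors and p-values from edgeR.

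Among genes of vesicle traffic, *Pick1* was at 47.1 ± 0.99 CPM in controls and 43.9 ± 1.72 CPM in cKO (SD, n = 4), and although every cKO library, from 42.1 to 45.7 CPM, was below every control, from 46.0 to 48.2 CPM, the difference was only 1.07-fold (edgeR adjusted p = 0.73). *Agfg1* was at 139 ± 16.6 CPM in controls and 126 ± 9.82 CPM in cKO. In single libraries *Agfg1* ran at 161, 122, 143 and 132 CPM in control replicates 1 to 4 and at 129, 130.2, 134 and 112 CPM in cKO replicates 1 to 4, so that the groups overlapped. Part of the exonic sequence of *Pick1*, 22.5%, is shared with *Gm49486* on the same strand. *Spaca1*, for an acrosomal membrane protein, was at 4.72 ± 0.96 and 3.64 ± 0.48 CPM, *Gopc* at 52.7 ± 11.5 and 46.5 ± 5.03 CPM, and *Spaca9* at 1.56 ± 0.70 and 0.79 ± 0.42 CPM in controls and cKO, none of them past the test. *Cd46*, a complement regulator that in mouse germ cells sits on the inner acrosomal membrane, was at 2.07 ± 0.64 CPM in controls and 3.13 ± 1.27 CPM in cKO (edgeR adjusted p = 0.67).

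Among the 11 genes for adhesion to and fusion with the egg, 4 reached a TPM of 1 in all controls and 5 were tested, with 3 lower and 2 higher in cKO and a median log2 fold change of -0.21. *Izumo4*, on chromosome 10 from 80538018 to 80541232 (forward strand), belongs to the family of the fusion protein IZUMO1. It was at 13.3, 11.3, 10.8 and 11.4 CPM in control replicates 1 to 4 and at 5.11, 7.25, 5.86 and 8.37 CPM in cKO replicates 1 to 4. Every cKO library was below every control, and, unlike in the 10 members lower by 2-fold or more, cKO replicate 1 was the lowest of its group. The 1.76-fold difference in mean CPM corresponded to a log2 fold change of -0.82 ± 0.19 (standard error), with edgeR adjusted p = 0.24 and DESeq2 adjusted p = 0.0064. The exact permutation test gave p = 0.0286 (two-sided), the smallest that 4 against 4 libraries allow.

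*Spesp1*, for a protein of the equatorial segment where fusion starts, was at 54.4, 18.9, 24.1 and 14.8 CPM in control replicates 1 to 4 and at 18.1, 11.8, 11.2 and 9.22 CPM in cKO replicates 1 to 4. Only cKO replicate 1 reached the control range, above control replicate 4. On the log2 scale the difference was -1.16 ± 0.44 (standard error, edgeR adjusted p = 0.52, 0.061 from DESeq2) and -0.85 ± 0.16 without replicate 1 (edgeR adjusted p = 7.02e-04).

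*Spaca6* had higher values in cKO. SPACA6 is a sperm membrane protein that is required for fusion, and its gene lies on chromosome 17 from 18047420 to 18063271 (forward strand). Control replicates 1 to 4 were at 6.72, 5.58, 3.98 and 4.92 CPM and cKO replicates 1 to 4 at 6.57, 8.87, 7.82 and 9.29 CPM, so that control replicate 1 was just above cKO replicate 1 and the other libraries did not overlap. The log2 fold change of 0.62 ± 0.21 (standard error) had an edgeR adjusted p of 0.44, and 0.84 ± 0.21 without replicate 1 had adjusted p = 0.011. The microRNA gene *Mir125a* shares 47 exonic bases with *Spaca6*.

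*Izumo1* was at 1.33 ± 0.27 CPM in controls and 1.14 ± 0.41 CPM in cKO (edgeR adjusted p = 0.91), and 42.7% of its exonic bases lie in exons of *Rasip1* on the same strand, so that its low count is uncertain. *Eqtn*, for the acrosomal membrane protein equatorin, had 24 counts over the 8 libraries and was at or under the floor in 5 of them. *Tmem95*, *Dcst1* and *Dcst2*, whose products are also required for fusion, had mean levels of 0.15 to 0.23 TPM in controls and 0.12 to 0.21 TPM in cKO. *Eqtn* did not pass the test, and *Tmem95*, *Dcst1* and *Dcst2* were not tested.

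The 8 genes of the sperm surface and oviduct passage held both the most abundant member and one of the members called by DESeq2. *Tmprss12* encodes a transmembrane serine protease that sperm need to enter the oviduct, and lies on chromosome 15 from 100178696 to 100190947 (forward strand). It was at 14.9, 5.58, 7.58 and 6.87 CPM in control replicates 1 to 4 and at 5.05, 2.91, 3.91 and 2.98 CPM in cKO replicates 1 to 4. All 4 cKO libraries were below all 4 controls, although cKO replicate 1 and control replicate 2 were close. Its log2 fold change was -1.23 ± 0.32 (standard error, edgeR adjusted p = 0.31, 0.030 from DESeq2), and the exact permutation test gave p = 0.0286, again the smallest possible. Without replicate 1 the difference was -1.03 ± 0.24 (edgeR adjusted p = 0.0059).

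*Lypd4*, for a GPI-anchored protein of the same family fold as TEX101, was at 56.6, 13.6, 19.7 and 10.9 CPM in control replicates 1 to 4 and at 20.9, 7.05, 6.28 and 3.40 CPM in cKO replicates 1 to 4. It followed the course of *Acrbp*, with cKO replicate 1 alone inside the control range. The log2 fold change of -1.42 ± 0.77 (standard error) had edgeR adjusted p = 0.64, and -1.40 ± 0.28 without replicate 1 had adjusted p = 0.014.

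*Tex101*, on chromosome 7 from 24367432 to 24376100 (reverse strand), was at 355, 408, 458 and 372 CPM in control replicates 1 to 4 and at 277, 361, 382 and 371 CPM in cKO replicates 1 to 4. *Ly6k* was at 85.9, 89.1, 99.1 and 76.0 CPM in controls and 71.4, 80.0, 89.4 and 82.3 CPM in cKO. For both genes replicate 1 was not the highest library of either genotype, and the ranges of the genotypes overlapped. Their log2 fold changes were -0.19 ± 0.11 and -0.12 ± 0.10 (standard errors, adjusted p = 0.63 and 0.74 from edgeR). The lncRNA *Gm17189* lies opposite 60.5% of the exonic bases of *Ly6k*, and the unstranded libraries cannot tell their reads apart.

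*Ace*, the gene of angiotensin-converting enzyme, whose shorter testis form starts from a promoter inside the gene, was at 52.8 ± 11.2 CPM in controls and 55.8 ± 8.85 CPM in cKO (log2 fold change 0.08 ± 0.16, edgeR adjusted p = 0.92). The gene-level count adds up both forms. *Prss21*, for the GPI-anchored protease testisin, had a mean of 1.36 CPM in controls, carried by 3.87 CPM in control replicate 1, and was at or under the floor in 3 of the 8 libraries (edgeR adjusted p = 0.58).

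*Dbil5*, for an endozepine-like peptide known from spermatids, was detected in all libraries at this age. The summed level of the 8 spermatid markers was up to 2.04 TPM in controls, and among cKO libraries *Tnp1*, for a transition protein of spermatids, reached 3.36 TPM in replicate 3 and 6.06 TPM in replicate 4. These 2 values rest on 4 and 7 counts. *Tnp1* had 14 counts over all 8 libraries and was at or under the floor in 6 of them. The levels of *Dbil5* were 7.81, 2.85, 2.09 and 2.50 CPM in control replicates 1 to 4 and 3.45, 1.23, 1.75 and 0.92 CPM in cKO replicates 1 to 4. Replicate 1 was highest in each genotype, and the genotypes overlapped only through cKO replicate 1. The estimated difference was -1.05 ± 0.51 (standard error, edgeR adjusted p = 0.59). *Gemin4*, on the opposite strand, overlaps 23.3% of the exonic bases of *Dbil5*.

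Without regard to size, 3 of the 24 tested members had every cKO library below every control, namely *Pick1*, *Izumo4* and *Tmprss12*, where 3.03% of all genes did, and none had every cKO library above (2.47% of all genes). On the deposited TPM, *Tmprss12* alone kept the genotypes apart, and the share over all genes is not given there. In replicates 2 to 4 alone, 12 members had all cKO libraries below all controls (10.6% of all genes), and *Cd46* and *Spaca6* had all above (8.17%). A difference of 2-fold or more towards lower values was seen for 10 members and for 9.88% of all genes. Among these 10 was *Prss21*, which passed the filter only through controls.

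Markers of pachytene spermatocytes other than *Mybl1* showed a like order of libraries. All 8 pachytene markers were lower in cKO, with a median log2 fold change of -1.23, and their summed level was 2236, 739, 988 and 623 TPM in control replicates 1 to 4 and 769, 339, 346 and 294 TPM in cKO replicates 1 to 4. Replicate 1 was the highest of each genotype in this sum too. *Piwil1*, which encodes a PIWI protein of pachytene cells, was at 332 ± 217 CPM in controls and 80.3 ± 50.4 CPM in cKO (SD, n = 4, edgeR adjusted p = 0.44, 0.035 from DESeq2). The 8 spermatogonial markers were all higher in cKO, with a median log2 fold change of 0.21, and the 8 early spermatocyte markers split 4 and 4 with a median of 0.03, none called by either tool over the 8 libraries. Without both replicate 1 libraries edgeR called 2 early spermatocyte markers, *Spo11*, for the enzyme of meiotic double-strand breaks, lower in cKO (-0.57 ± 0.14, edgeR adjusted p = 0.017, 0.0063 from DESeq2) and *Dmc1*, for a meiotic recombinase, higher in cKO (0.25 ± 0.08, edgeR adjusted p = 0.046, 0.081 from DESeq2). Of the pachytene markers, edgeR called 1 without both replicate 1 libraries, *Pgk2*, lower in cKO (-3.36 ± 0.53, adjusted p = 2.63e-05). DESeq2 without them called *Piwil1* (adjusted p = 1.06e-08), *Ldhc* (9.89e-08), *Pgk2* (9.97e-06) and *Hspa2* (5.36e-05), all lower in cKO. It did not call *Ccna1*, *Mybl1*, *Pou5f2* or *Tbpl1* there. The part of the pachytene level in the differences of the acrosome genes was not tested.

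**Figure D4:**
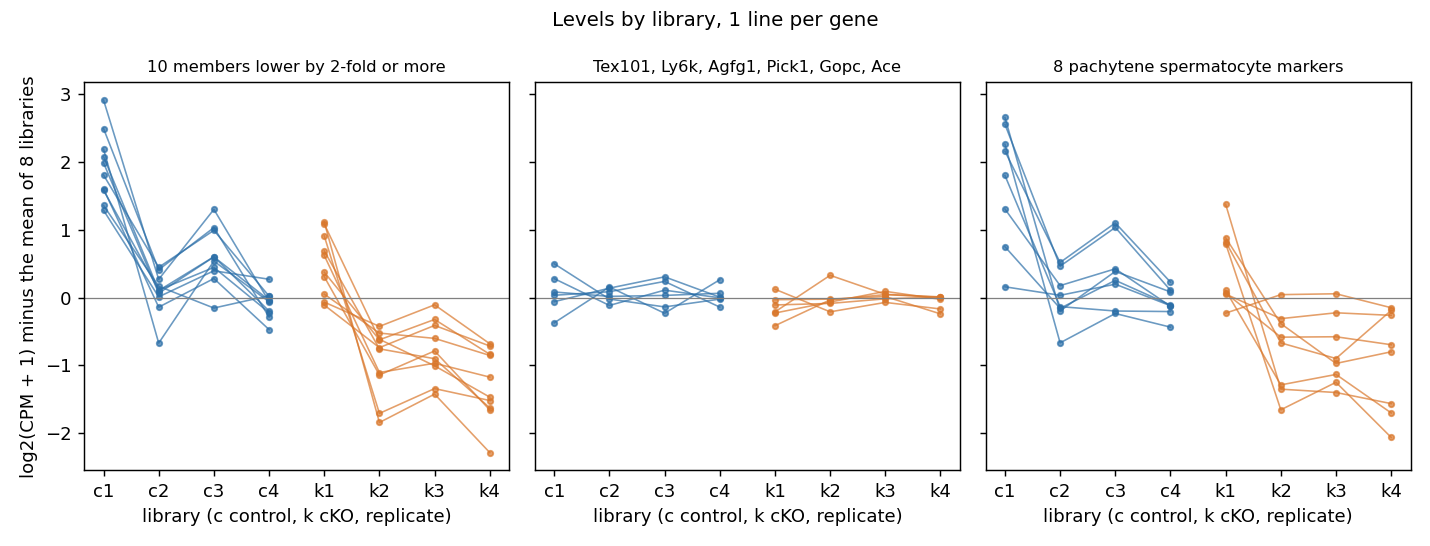
log2(CPM + 1) minus the mean of the 8 libraries (vertical axis) in each control (blue) and cKO (orange) library, 1 line per gene. In the left panel, 10 members lower by 2-fold or more in cKO, and in the right panel, 8 pachytene spermatocyte markers, values in replicate 1 are mostly the highest of their genotype, while *Tex101*, *Ly6k*, *Agfg1*, *Pick1*, *Gopc* and *Ace* in the middle panel vary less.

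The wider pathway was read from 2 further lists. Of 20 other genes of acrosome assembly, 19 were in the table and 14 were tested. All 14 were lower in cKO, with a median log2 fold change of -0.21, and none was called by edgeR or DESeq2, while 2 had an unadjusted p under 0.05. The most abundant of them in controls, *Csnk2a2*, for a catalytic subunit of casein kinase II, was at 124 TPM in controls on average with a log2 fold change of -0.13, and *Hook1*, for a microtubule linker, at 51.5 TPM with -0.14. Both *Spata16* (log2 fold change -1.97 ± 1.06, edgeR adjusted p = 0.64), for a Golgi protein, and *Actl9* (-1.55 ± 0.75, adjusted p = 0.59), for an actin-like protein, were lower by more than 2-fold without passing in the fit of all 8 libraries, and *Golga3*, for a golgin, was at -0.26 ± 0.11 (adjusted p = 0.53). Without both replicate 1 libraries *Spata16* was at -2.35 ± 0.27 (edgeR adjusted p = 1.63e-06), *Actl9* at -1.19 ± 0.52 (adjusted p = 0.26) and *Golga3* at -0.16 ± 0.07 (adjusted p = 0.30).

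Of 22 other genes of fertilization, 16 were tested, 7 lower and 9 higher in cKO, with a median log2 fold change of 0.05. One of them, *Pcsk4*, was among the genes called by edgeR. PCSK4 is the proprotein convertase that cleaves precursors of sperm surface and acrosomal proteins. *Pcsk4* was at 23.8, 16.1, 22.6 and 17.0 CPM in control replicates 1 to 4 and at 8.76, 6.99, 7.40 and 7.87 CPM in cKO replicates 1 to 4, with no overlap. It fell by 1.36 on the log2 scale (standard error 0.17, DESeq2 adjusted p = 1.92e-09, edgeR adjusted p = 0.035). Its log2 fold change stayed between -1.44 and -1.26 with any 1 library left out, and was -1.33 ± 0.16 without both replicate 1 libraries (edgeR adjusted p = 4.20e-07). The edgeR call was lost without control replicate 3 (adjusted p = 0.22), without cKO replicate 2 (0.16), 3 (0.26) or 4 (0.19), and with the limma fits and edgeR's filterByExpr (0.054 to 0.12).

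DESeq2 also called *Plcd4*, for a phospholipase C of the acrosome reaction, at 6.36 ± 3.32 CPM in controls and 1.46 ± 0.85 CPM in cKO (log2 fold change -2.11 ± 0.45 and edgeR adjusted p = 0.23, adjusted p = 0.0019 from DESeq2), and 47.7% of its exonic bases lie opposite exons of *Zfp142*. *Clgn*, for a chaperone of sperm membrane proteins, was at 222 ± 115 and 85.8 ± 36.0 CPM in controls and cKO (edgeR adjusted p = 0.47). *Adam2* and *Adam1b*, for partners in the fertilin complexes, had log2 fold changes of -1.62 and -1.87 (adjusted p = 0.56 and 0.62 from edgeR). Without both replicate 1 libraries edgeR also called *Plcd4* (-2.16 ± 0.34, adjusted p = 2.66e-05) and *Adam1b* (-2.17 ± 0.30, adjusted p = 2.87e-06). *Clgn* (-1.31 ± 0.27, adjusted p = 0.12) and *Adam2* (-1.67 ± 0.42, adjusted p = 0.19) did not pass edgeR there and passed DESeq2 (adjusted p = 5.36e-05 and 0.0014). *Mfge8*, for a secreted glycoprotein and the most abundant of this list in controls at 144 TPM, had a log2 fold change of 0.12.

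The sequence before the start site was examined for letters bound by factors of late meiotic and spermatid transcription. RefSeq's promoter table (GRCm38.p6) held 32 of the 37 genes, with 250 bases before each start, and both strands were searched. A member was counted if any of its start sites had the letters, whereas the percentages are over single start sites. TGACG, the core of the cAMP response element bound by CREM, was present before 9 of the 32, of which 7 were among the 18 members in that table with a TPM of at least 1 in all controls, and before 17.8% of 32851 promoters, and the full TGACGTCA, which contains it, before 1 and 1.55%. GTTGCC, a core of the X-box of RFX factors, was present before 8 of the 32, of which 7 were again among these 18, and before 10.4% of all promoters. For MYB factors, TAACNG was present before 4 members, 1 of them among these 18, and before 19.8% of promoters. AACNGNC was present before 9 members, 5 of them among these 18, and before 27.7% of promoters. These are matches of letters and not binding sites, and no match says only that the letters are not in the window. Shares over the promoters of all expressed genes were not computed, and a link of motif to level was not tested. The windows of 5 members are printed to show a DESeq2-called member (*Tmprss12*), a pair with large differences and large spread (*Crisp2* and *Dpy19l2*), a member with higher values in cKO (*Spaca6*) and the most abundant one (*Tex101*). They are given 5′ to 3′ at the positions where the same letters occur once in GRCm39, with motif matches in capitals. The start sites are those of RefSeq and lie inside the bounds that GENCODE gives for all 5 genes.
Tmprss12 (chr15:100178468-100178717, forward strand): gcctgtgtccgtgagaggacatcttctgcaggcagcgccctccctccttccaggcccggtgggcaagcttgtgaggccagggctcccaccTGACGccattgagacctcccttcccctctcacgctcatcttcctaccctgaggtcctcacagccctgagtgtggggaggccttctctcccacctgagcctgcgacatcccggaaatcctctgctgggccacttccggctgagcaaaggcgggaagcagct
Crisp2 (chr17:41105038-41105287, reverse strand): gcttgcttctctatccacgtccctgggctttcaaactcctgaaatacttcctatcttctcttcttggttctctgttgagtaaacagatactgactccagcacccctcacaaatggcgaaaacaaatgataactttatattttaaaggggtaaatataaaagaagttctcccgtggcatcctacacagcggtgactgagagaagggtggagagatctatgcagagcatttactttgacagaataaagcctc
Dpy19l2 (chr9:24607590-24607839, reverse strand): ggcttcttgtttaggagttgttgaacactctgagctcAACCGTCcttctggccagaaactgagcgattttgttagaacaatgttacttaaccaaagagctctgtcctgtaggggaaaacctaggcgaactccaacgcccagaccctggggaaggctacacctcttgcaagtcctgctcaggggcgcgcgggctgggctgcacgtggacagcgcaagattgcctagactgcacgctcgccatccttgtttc
Spaca6 (chr17:18050987-18051236, forward strand): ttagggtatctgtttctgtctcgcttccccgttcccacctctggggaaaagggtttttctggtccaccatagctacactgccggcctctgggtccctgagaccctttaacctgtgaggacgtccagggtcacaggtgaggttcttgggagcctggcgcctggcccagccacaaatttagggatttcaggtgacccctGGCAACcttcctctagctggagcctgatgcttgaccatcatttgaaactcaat
Tex101 (chr7:24371476-24371725, reverse strand): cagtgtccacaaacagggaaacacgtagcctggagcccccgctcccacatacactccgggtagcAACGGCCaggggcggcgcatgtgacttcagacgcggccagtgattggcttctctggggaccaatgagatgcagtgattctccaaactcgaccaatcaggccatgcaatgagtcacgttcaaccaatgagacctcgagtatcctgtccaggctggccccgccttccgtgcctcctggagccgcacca
In *Tmprss12* the capitals mark the cAMP response element core starting 160 bases before the start, in *Spaca6* the RFX core on the other strand 53 bases before it, and in *Dpy19l2* and *Tex101* the second MYB form 213 and 186 bases before it. The window of *Crisp2* held none of the letters searched.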

How the data were processed

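RNA of germ cells from 4 *Mgat2*[F/F] control and 4 cKO males was sequenced by the authors from unstranded poly(A) libraries. Reads were aligned to mm39 (GRCm39) with STAR 2.7.9a and quantified with RSEM 1.3.3 on Ensembl release 105, per the submitters' processing notes and methods, which also name DESeq2 1.38.3. The authors deposited RSEM expected counts, not normalized, and TPM values, scaled within each library for length and depth. Reads shared by several genes are divided by RSEM, so 15.2% of expected counts above 0 were not whole, and they were rounded.

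The filter kept the 20187 genes whose TPM reached 1 in any of the 8 libraries. Genotypes were compared by the quasi-likelihood test of edgeR 4.0.16 in its robust form, after TMM normalization and without covariates, adjusted by Benjamini-Hochberg over all these genes at a threshold of 0.05. CPM are TMM-normalized. The ± after a log2 fold change is its standard error. Genes past the threshold are described as called. Single genes were also compared by exact permutation of log2(CPM + 1) over all 70 assignments of the libraries. Alternatives were DESeq2 1.42.0, limma 3.58.1, other normalizations and filters, the replicate number as a block, and leaving out libraries. DESeq2 without both replicate 1 libraries was chosen after seeing the data. Positions and exon overlaps were read from GENCODE mouse release 39, which held 54749 of the 55357 identifiers. R 4.3.3, Python 3.11.15, numpy 2.4.6, pandas 2.3.3 and scipy 1.17.1 were used.

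The members and the gene lists were chosen with earlier results of these data known. All 37 members are named, and those tested are described by role. Values of each library are given for members that reached a TPM of 1 in all controls and had an unadjusted p under 0.05. The same holds for members called in any fit of all 8 libraries and for the 5 most abundant, except *Pick1*, given as mean and range. From each pathway list the genes called in any such fit, up to 6, and the 2 most abundant are named.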

Additional observations from a re-analysis of the deposited data

Results flagged for a closer look

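Dixon's test for a sample far from the others was run on the CPM of each tested member in each genotype, 48 groups of 4 libraries in all. It singled out 7. Chance alone would single out about 1 group in 20 if the groups were independent and the values normally distributed. The groups share the same 8 libraries and CPM are skewed, so the 7 cannot be set against that rate. In 4 of the 7, cKO replicate 1 stood above the other cKO libraries. *Acrbp* was at 19.5 CPM there, with the next library at 5.79 CPM. *Crisp2* was at 57.6 CPM, next to 9.07 CPM, *Zpbp2* at 14.9 CPM, next to 3.88 CPM, and *Dpy19l2* at 15.1 CPM, next to 2.37 CPM. In 2 others, control replicate 1 stood above the other controls, with *Gopc* at 69.7 CPM, next to 48.3 CPM, and *Dbil5* at 7.81 CPM, next to 2.85 CPM. The last was *Spaca1* in control replicate 3, at 3.29 CPM, below the nearest control at 5.09 CPM.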

How the results depend on the processing

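Of 605 recomputed log2 fold changes of 32 named genes, 544 kept their direction and side of the threshold, 51 gained a call, 8 lost it (all *Pcsk4*) and 2 reversed. Both reversals were of *Ace*, which ran from -0.027 (without cKO replicate 2) over -0.021 (without control replicate 1) to 0.20 with 1 library left out. The number of members called was 0 in the main fit, 3 with DESeq2, 9 without both replicate 1 libraries and 11 with DESeq2 without them. It was 12 with the replicate number as a block, described below, and 0 with every other test, normalization, filter and single library left out. Of all genes, 8 were called, against 302 with DESeq2, 0 with limma-voom, both limma fits on log2 TPM and filterByExpr, 17 with library totals, 35 with no filter, 845 without both replicate 1 libraries, 894 with DESeq2 without them, and 0 to 32 with 1 library left out. In the 2 pathway lists together, 1 gene was called, against 2 with DESeq2, 0 with the limma fits and filterByExpr, 5 without both replicate 1 libraries, 7 with DESeq2 without them and 0 to 1 with 1 library left out. The genotypes did not overlap for 3 members, against 1 on deposited TPM and 14 without both replicate 1 libraries. Leaving 1 library out gave 3 to 14 members, with 14 when it was cKO replicate 1. Over all genes, 3.03% lay below and 2.47% above with 8 libraries, and 10.6% and 8.17% without both replicate 1 libraries. Shares over all genes for the other settings are not given here. A TPM of at least 1 in all controls was reached by 21 members, and by 21 to 22 or 18 with limits of 0.5 TPM, more than 3 counts or 5 TPM. The cause of these differences was not tested.

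Both genotypes are numbered 1 to 4, but the labels give no pairing. Deviations from the genotype means of same-numbered libraries correlated across genes at 0.087 to 0.697, under 0.1 for 1 of the 4 numbers. The mean was 0.35 for same-numbered libraries and -0.089 for differently numbered ones, which reached up to 0.33. With no pairing in the labels and 1 number under 0.1, the numbers were not taken to pair the mice. With the replicate number as a block, edgeR called 12 members, all lower in cKO, 8 genes of the pathway lists and 1464 genes in all (7.25%).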
